A study of Homo sapiens with 10 samples.

Results

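The comparison set all 8 arrays of 4 knockdown hairpins against the 2 arrays of a control hairpin in MM.1S, a human cell line derived from multiple myeloma, a cancer of plasma cells. A hairpin RNA is cut inside the cell into a short RNA that leads to the destruction of a matching transcript. The knockdown groups, with 2 arrays each, were shHDAC3#1 and shHDAC3#2, aimed at the histone deacetylase HDAC3, and shDNMT1#1 and shDNMT1#2, aimed at the DNA methyltransferase DNMT1. The control group, also with 2 arrays, was shLuc, a hairpin against luciferase, which human cells do not make. All 10 arrays shared the same cell line, infection with a lentivirus carrying the hairpin, and RNA extraction 48 h after infection. The labels call shLuc the control of the HDAC3 hairpins and name no other control for the DNMT1 hairpins. Genes were members when all 8 knockdown arrays lay on one side of both shLuc arrays. Of 19775 genes measured, 2116 had all 8 knockdown arrays above both shLuc arrays and 1839 had all 8 below, which is 10.7% and 9.3% of the genes.

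HDAC3 removes acetyl groups from histones at repressed genes, as the enzyme of complexes built on the co-repressors NCoR and SMRT. DNMT1 restores DNA methylation on the new strand after replication, and UHRF1 brings it to the sites that carry methylation on the old strand alone. Myeloma cells secrete large amounts of antibody or its parts, so their endoplasmic reticulum, which folds and glycosylates secreted proteins, carries a heavy load. Proliferating cells make the transcripts for DNA replication in S phase and those for mitosis in G2 and M phase. A pool of 4 hairpins against 2 targets is set against a single control hairpin here. Any peculiarity of the 2 shLuc arrays would put all 8 knockdown arrays on one side of them in the same way as a change common to the knockdowns, and these data cannot tell the 2 apart.

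The labelled cell type was checked first. All 9 plasma cell markers, among them SDC1, TNFRSF17, IRF4 and JCHAIN, had a mean log2 signal over 6, and their average lay between 9.77 and 10.22 in the knockdown arrays, against 10.37 and 10.38 in the shLuc arrays. The mean over B cell markers, of which 5 of 6 exceeded a signal of 6, lay between 6.44 and 6.71 in the knockdown arrays, against 6.49 in both shLuc arrays. Fibroblast markers, 3 of 6 over a signal of 6, averaged 6.23 to 6.39 in the knockdown arrays, against 6.15 to 6.24 in shLuc. Marker lists of T cells, myeloid, erythroid and epithelial cells averaged between 5.38 and 6.26 in the knockdown arrays and between 5.39 and 6.12 in the shLuc arrays. Arrays of one group correlated over all genes with r between 0.9937 and 0.9963, arrays of different hairpins with r between 0.9814 and 0.9921, and knockdown with shLuc arrays with r between 0.9748 and 0.9937. The spread of the log2 values was wider in the shLuc arrays, with an SD of 1.843 to 1.915 in the knockdown arrays, against 1.943 and 1.929 in shLuc. The control probe set for Alu repeats read 12.78 to 12.97 in the knockdown arrays, against 12.72 and 12.70 in shLuc. Spike-in controls of hybridization, added to each sample, averaged 11.58 in shDNMT1#2 replicate 2 and 11.77 to 12.18 in the other knockdown arrays. In shLuc they averaged 11.59 and 11.66. ACTB signal at the 3′ end exceeded that at the 5′ end, a gap that widens as RNA degrades, by 0.98 and 1.02 in shHDAC3#1 and 0.63 to 0.81 in the other knockdown arrays, against 0.70 and 0.75 in shLuc. What part these array differences have in the results below was not tested.

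The transcripts of the targets were examined next. DNMT1 lay between 5.76 and 7.89 in the 8 knockdown arrays, with a median of 6.70, against 8.49 and 8.33 in shLuc, so that the groups did not overlap. Its pooled log2 change was -1.65 ± 0.10 (SE of the limma model, adjusted p = 6.7e-10), to 31.8% of shLuc. By hairpin the change was -1.20 with shHDAC3#1, -0.65 with shHDAC3#2, -2.53 with shDNMT1#1 and -2.24 with shDNMT1#2. DNMT1 was thus below shLuc with the HDAC3 hairpins as well as with its own. HDAC3 lay between 5.52 and 7.09 in the knockdown arrays, with a median of 6.13, against 7.26 and 6.61 in shLuc. Its groups overlapped because 1 array of shDNMT1#1, at 7.09, lay above the lower shLuc array. The pooled log2 change of HDAC3 was -0.77 ± 0.14 (adjusted p = 0.00041), with -1.09 and -1.26 for its own hairpins and -0.12 and -0.60 for the DNMT1 hairpins. It was not called without shLuc replicate 1 (-0.45, adjusted p = 0.17). Both targets were read by 1 probe set each, of a kind that can cross-hybridize.

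In the pooled comparison, the mean of the 4 hairpin means minus shLuc, 4389 genes (22.2%) were called at an adjusted p under 0.05. Of these, 1226 (6.2%) were higher and 3163 (16.0%) were lower in the knockdown arrays. Lower genes made up 72.1% of the calls, 53.2% after a further quantile normalization and 88.3% after centring each array on its median. The median log2 change of all genes was 0.062. One control array had a large part in the number of increases: without shLuc replicate 1, 55 genes were called higher and 1405 lower, and without shLuc replicate 2, 1574 were called higher and 2900 lower. Increases also numbered 641 without shHDAC3#1 replicate 1 and 2147 without shDNMT1#1 replicate 1. The model takes the spread between the 2 arrays of a hairpin as error. When the hairpin was instead a random block, so that differences between hairpins counted as error, limma called 0 genes higher and 6 lower, against 762 and 1761 at an unadjusted p under 0.05. With the 8 knockdown arrays as 1 group, 27 were called higher and 276 lower. A total of 2574 genes (13.0%) were both called and on one side in all 8 arrays, 839 (4.24%) above and 1735 (8.77%) below shLuc. The genes described below come from these 2574 unless stated otherwise. The hairpins that define a change here share the same 2 control arrays, so a value that is high or low in shLuc enters all 4 of them.

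The increases were small and the decreases larger. The median log2 change was 0.29 for the 839 genes above shLuc and -0.52 for the 1735 genes below it. Only 3 genes (0.0152%) were called and at least 2-fold higher, all of them with 8 arrays above shLuc, while 111 genes (0.561%) were called and at least 2-fold lower, 97 of them with 8 arrays below shLuc. At the edge of the rule, the knockdown arrays of SECISBP2 began at 7.96 with shDNMT1#2, a hair above the higher shLuc array, also at 7.96, and it was included. The highest knockdown array of RPL22, at 12.83 with shHDAC3#2, lay just under the lower shLuc array, at 12.83, and it was included too. For POU4F3, at 4.32, and SINHCAF, at 7.64, a knockdown array and a shLuc array had the same value, and these genes fell just outside. Without shLuc replicate 1, SECISBP2 (adjusted p = 0.58), RPL22 (adjusted p = 0.42) and POU4F3 (adjusted p = 0.63) were not called, and without shLuc replicate 2 RPL22 (adjusted p = 0.18) and POU4F3 (adjusted p = 0.0546) were not called.

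OSTM1, a partner of the chloride-proton exchanger of lysosomes, showed the largest increase. It read 5.94 and 6.27 in shHDAC3#1, 5.24 and 5.56 in shHDAC3#2, 6.35 and 6.15 in shDNMT1#1 and 5.05 and 5.36 in shDNMT1#2, against 3.86 and 3.97 in shLuc. Every knockdown array was at least 1.09 log2 units above both shLuc arrays. The pooled change was 1.83 ± 0.12 (3.55-fold, adjusted p = 1.7e-09), and the other 3 probe sets of OSTM1 gave 1.01, 0.37 and 0.91. C11orf54 read 6.46 to 7.44 with a median of 6.97 in the knockdown arrays, against 5.72 and 5.65 in shLuc (log2 change 1.30 ± 0.09, adjusted p = 8.6e-09). A second probe set of C11orf54 gave 1.21 and another, dim one gave 0.17. The nucleolar protein RRP1B read 9.02 to 9.71 with a median of 9.41, against 8.19 and 8.03 in shLuc (1.24 ± 0.10, adjusted p = 2.6e-08). Its second probe set gave 0.21 and was not called over all probe sets (adjusted p = 0.10). These 3 genes stood apart from all other increases that met the rule, as the next was CFL2 at 0.83. CXCL10 was called higher by 0.92 (adjusted p = 2.7e-06) without meeting the rule.

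The other large increases lay between 0.57 and 0.83. CFL2, a cofilin that severs actin filaments, read 5.27 to 6.61 in the knockdown arrays, against 5.20 and 5.17 in shLuc, so that its lowest array barely cleared the control. RNF149, a membrane ubiquitin ligase, read 7.95 to 8.45, against 7.37 and 7.46 in shLuc (log2 change 0.77 ± 0.09). DUSP5, a phosphatase that switches off ERK in the nucleus, read 9.61 to 10.44, against 9.33 and 9.16 in shLuc (0.63 ± 0.08). It was highest in both shHDAC3#2 arrays, at 10.28 and 10.44. IMPDH1, an enzyme of guanine nucleotide synthesis, read 8.34 to 8.75, against 7.85 and 7.96 (0.63 ± 0.08). The growth factor receptor IGF1R read 6.32 to 6.88, against 5.94 and 6.02 (0.62 ± 0.09), although its other 4 probe sets gave between 0.08 and 0.29. The long nuclear RNA MALAT1 read 10.77 to 11.26, against 10.48 and 10.40 (0.61 ± 0.08), and its other 11 probe sets gave between -0.02 and 0.56. The cytokine receptor IL21R read 6.28 to 6.67, against 5.76 and 6.12 (0.58 ± 0.10), with 0.53 and 0.76 from its other probe sets. WASF3, which promotes actin branching, changed by 0.58 ± 0.10, and HSPE1, the co-chaperonin of mitochondria, by 0.57 ± 0.07. Each of these genes was called, with adjusted p-values from 1.6e-06 to 0.00031.

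**Figure D1:**
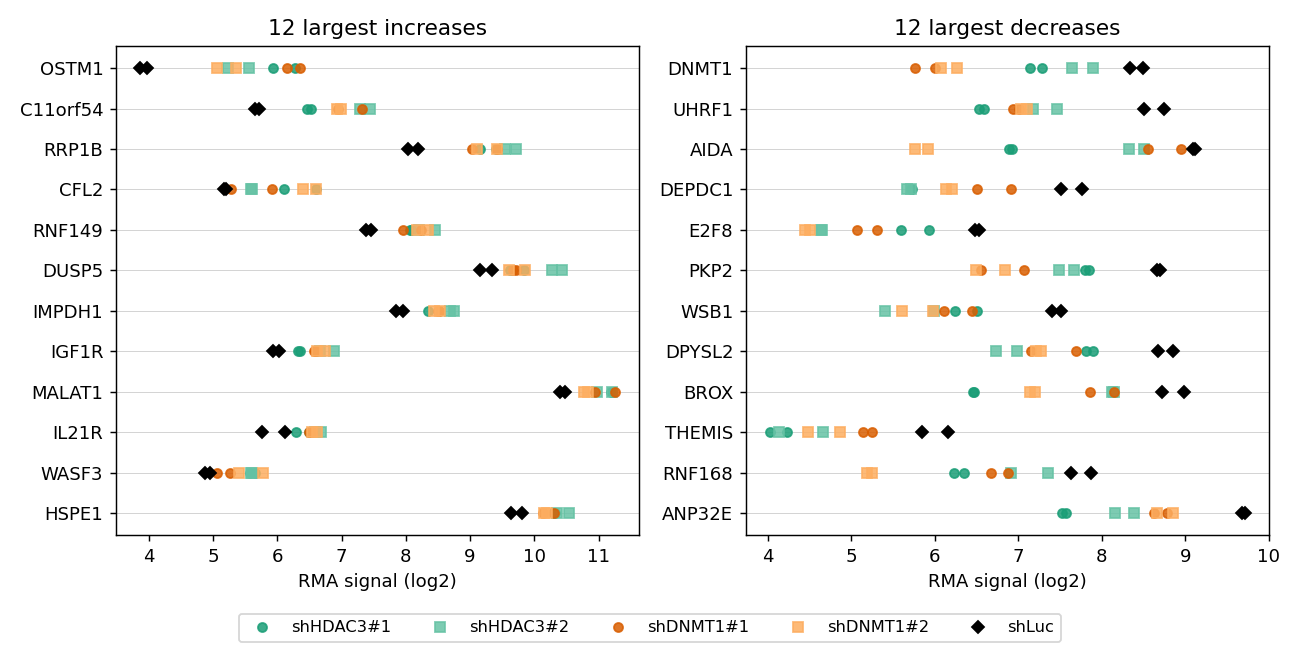
RMA signal (log2, x axis) in each of the 10 arrays for the 12 largest increases (left) and 12 largest decreases (right) among called genes with all 8 knockdown arrays on one side. Coloured points are single knockdown arrays by hairpin and black diamonds are the 2 shLuc arrays. The OSTM1 knockdown arrays lie between 5.05 and 6.35 and those of AIDA spread from 5.76 to 8.95.

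UHRF1, which recognises half-methylated DNA and recruits DNMT1, showed a pooled decrease as large as that of DNMT1 itself, though not hairpin by hairpin. With the DNMT1 hairpins UHRF1 changed by -1.65 and -1.56, against -2.53 and -2.24 for DNMT1. With the HDAC3 hairpins UHRF1 changed by -2.06 and -1.30, against -1.20 and -0.65 for DNMT1. UHRF1 read 6.53 and 6.59 in shHDAC3#1, 7.18 and 7.47 in shHDAC3#2, 6.94 and 7.01 in shDNMT1#1 and 7.03 and 7.10 in shDNMT1#2, against 8.74 and 8.51 in shLuc. All knockdown arrays were at least 1.04 below both shLuc arrays. Its pooled log2 change was -1.64 ± 0.09 (to 32.0% of shLuc, adjusted p = 6.7e-10), and HDAC3 hairpins minus DNMT1 hairpins gave -0.07 (adjusted p = 0.66). UHRF1 was also 1 of only 6 genes called with the hairpin as a random block (adjusted p = 0.019). The others were MAL2, NPNT, CDCA7, UNC13C and RHOQ, all lower, named here because they are so few. CDCA7, a partner of the chromatin remodeller HELLS, changed by -0.85 in the pool.

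The other large decreases lay between -1.38 and -1.62. AIDA, which binds the scaffold axin, read 5.76 to 8.95 with a median of 7.62 in the knockdown arrays, against 9.11 and 9.09 in shLuc. DEPDC1, a gene of mitotic cells, read 5.66 to 6.91, against 7.76 and 7.51 (log2 change -1.56 ± 0.10). E2F8, a repressor of the E2F family, read 4.45 to 5.93, against 6.53 and 6.48 (-1.48 ± 0.10). PKP2, a plakophilin of cell junctions, read 6.50 to 7.85, against 8.70 and 8.65 (-1.46 ± 0.11), and was lowest with the DNMT1 hairpins. WSB1, a substrate receptor of a ubiquitin ligase, changed by -1.42 ± 0.13 and DPYSL2, a tubulin-binding protein, by -1.42 ± 0.11. WSB1 probe sets disagreed, with -1.23, 0.24, -0.14 and -0.03 from the other 4. BROX, which binds the ESCRT machinery of membrane budding, changed by -1.41 ± 0.09 and the lymphocyte signalling protein THEMIS by -1.41 ± 0.13. RNF168, a ubiquitin ligase that marks histones at DNA breaks, read 5.18 to 7.35, against 7.87 and 7.63 (-1.40 ± 0.11), with -0.03 from a second, dim probe set. ANP32E, the chaperone that removes the histone variant H2A.Z, read 7.53 to 8.85, against 9.72 and 9.68 (-1.38 ± 0.08). The adjusted p-values ran from 6.7e-10 to 1.3e-07.

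How evenly a gene changed over the 4 hairpins was tested by an F test of the differences between hairpins. These differences use no shLuc array, but the shLuc arrays were in the fit that gave the error. Over all genes the F test called 4664 (23.6%). Of the genes above shLuc, 42 of 839 (5.0%) differed between hairpins, and of those below shLuc, 1046 of 1735 (60.3%) did. The rule needs every knockdown array to clear both shLuc arrays, which limits how far the hairpins of a small change can spread. The low share above shLuc was therefore partly set by the selection and cannot be held against the 23.6% of all genes. Changes of like size were compared next, among the same selected genes. Signal level was not matched, with a median of 6.72 above shLuc and 7.64 below it. Between 0.25 and 0.35 log2 units, 3.23% of 558 genes above shLuc and 29.9% of 254 genes below it differed between hairpins. Between 0.35 and 0.5, the shares were 11% of 127 and 49.3% of 491. Few increases were larger, and among the 9 increases between 0.5 and 0.75, 5 differed between hairpins, against 69.3% of 602 decreases. A value of the shLuc arrays alone adds the same amount to all 4 hairpin changes and does not enter their differences. The spread between the shLuc arrays does enter the error of the test. Why the selected increases were more even than the decreases was not tested. The difference between the 2 targets, HDAC3 hairpins minus DNMT1 hairpins, was called for 1897 genes (9.59%) in all, for 7 of the genes above shLuc and for 443 of those below it.

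The evenest increases among those of at least 0.5 were RNF149, IL21R, HSPE1 and LY9, a receptor of lymphocytes. LY9 read 8.57 to 8.97 in the knockdown arrays, against 8.37 and 8.22 in shLuc, while its other 2 probe sets gave -0.12 and -0.08. The evenest decreases were TPST1, a tyrosine sulfotransferase of the Golgi, AK3, an adenylate kinase of mitochondria, CSE1L, which exports importin alpha from the nucleus, and XRN1, the cytoplasmic RNA exonuclease. CSE1L read 8.33 and 8.41 in shHDAC3#1, 8.23 and 8.45 in shHDAC3#2, 8.53 and 8.32 in shDNMT1#1 and 8.38 and 8.40 in shDNMT1#2, against 9.13 and 8.90 in shLuc. These knockdown arrays sat together, with an adjusted p of 0.93 for a difference between hairpins, and the pooled change was -0.64 ± 0.08 (adjusted p = 1.0e-05).

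The most uneven decreases each came largely from 1 or 2 hairpins. ARMC1 read 5.98 and 6.01 in shHDAC3#1 and between 8.13 and 8.62 in the other knockdown arrays, against 8.72 and 8.66 in shLuc. GALNT3, which starts mucin-type O-glycosylation, read 3.53 and 3.78 in shHDAC3#1 and 5.37 to 6.31 in the others, against 6.58 and 6.39. HSD17B12, which elongates fatty acids, read 6.88 and 7.24 in shDNMT1#2 and 8.91 to 9.76 in the others, against 10.08 and 10.05. AIDA read 5.76 and 5.92 in shDNMT1#2 and 6.88 and 6.92 in shHDAC3#1, with 8.33 to 8.95 in the other 2 hairpins. Such genes meet the rule, but their pooled change describes no single hairpin. The most uneven increases were OSTM1, C11orf54, CFL2 and MDH1, the cytosolic malate dehydrogenase, which read 10.04 to 10.96, against 9.94 and 10.003 in shLuc.

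**Figure D2:**
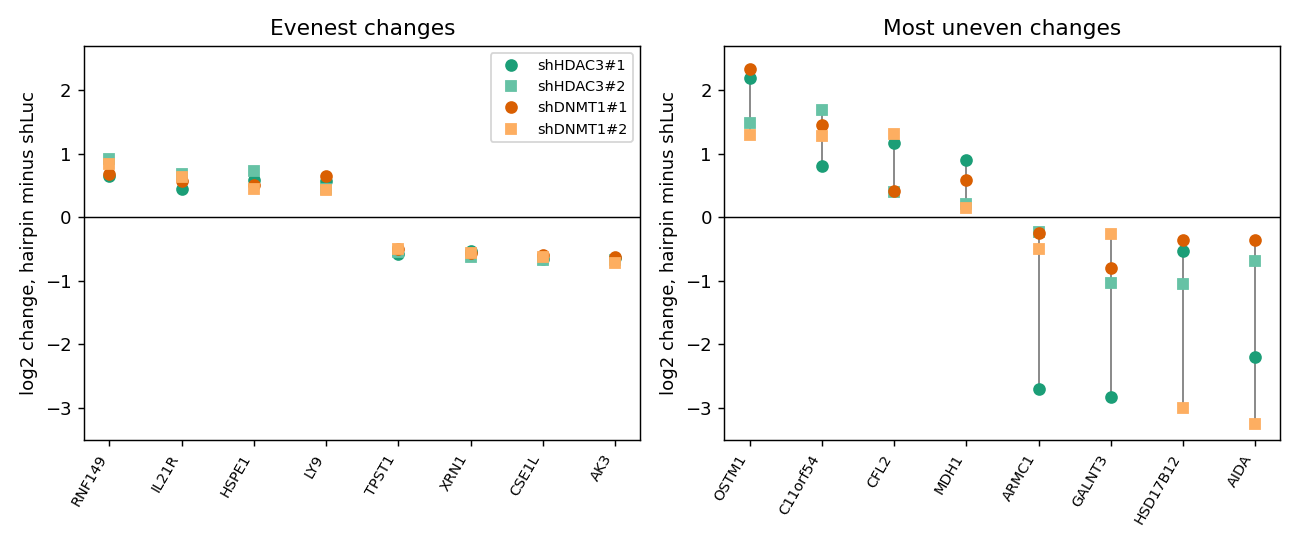
Log2 change of each hairpin minus shLuc (y axis, mean of 2 arrays minus mean of the 2 shLuc arrays) for the evenest genes (left) and the most uneven (right). Vertical lines join the lowest and highest hairpin. The 4 points of CSE1L nearly coincide, while shHDAC3#1 alone takes ARMC1 and GALNT3 far below the other hairpins.

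The share of genes on one side depended on signal level. Genes with a mean signal under 5 were called with all 8 arrays above shLuc in 2.47% of 5012 cases and below it in 1.06%. At levels of 7 to 8 the shares were 5.66% above and 13.6% below, and at 8 to 9 they were 5.12% and 20.4%. At 9 to 10, 1.67% of 538 genes lay above and 30.9% below, and the median change of all genes at that level was -0.27. Over 10 the share below was 16%, of 300 genes. RMA compresses the changes of dim genes, and the shLuc arrays had the widest spread of values. What part either had in this dependence on level was not tested. With each array centred and scaled to 1 SD, 962 genes lay above shLuc and 1649 below.

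**Figure D3:**
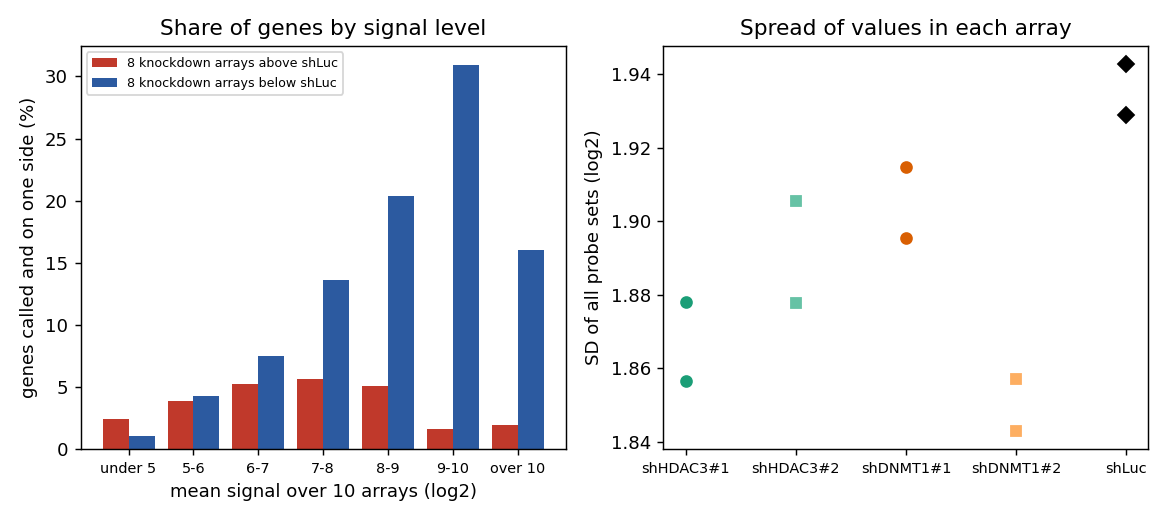
Left, the share of genes (%) called with all 8 knockdown arrays above (red) or below (blue) both shLuc arrays, by mean log2 signal over the 10 arrays. Right, the SD of all probe set values (log2) in each array, from 1.843 to 1.915 in the knockdown arrays, against 1.943 and 1.929 in shLuc; the axis does not start at 0.

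Functional lists were then counted against the 4.24% of all genes called with 8 arrays above shLuc and the 8.77% called with 8 below. Those shares cover genes of every signal level. They move with the setting, and list counts under another setting are to be read against its own shares. After a further quantile normalization, 7.69% of all genes lay above and 6.69% below. With probe sets that can cross-hybridize left out, 3.61% of 17098 genes lay above and 6.85% below. Of all genes, 13.6% lay below at a mean signal of 7 to 8, 20.4% at 8 to 9 and 30.9% at 9 to 10. Replication (median signal 7.31) and mitosis (7.19) had 65.5% and 54.1% below. Entry into the endoplasmic reticulum (8.35) had 30.9% and N-glycosylation (8.38) 25%. Proteasome (9.02), heat shock (9.25) and respiratory chain (9.93) genes, at 22.9%, 18.5% and 13.5%, were under the share of all genes at 9 to 10. The highest shares of members below shLuc were those of DNA replication (36 of 55), mitosis (33 of 61), chromatin silencing (16 of 36), nuclear transport (20 of 46), folding in the endoplasmic reticulum (17 of 43) and DNA repair (18 of 46). The lowest were those of ribosomal proteins (1 of 51), ribosome biogenesis (1 of 45) and ERK feedback genes (1 of 32). No list had more than 3 members above shLuc. In bulk RNA, fewer cells in a phase of the cell cycle and less RNA per cell cannot be told apart.

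**Figure D4:**
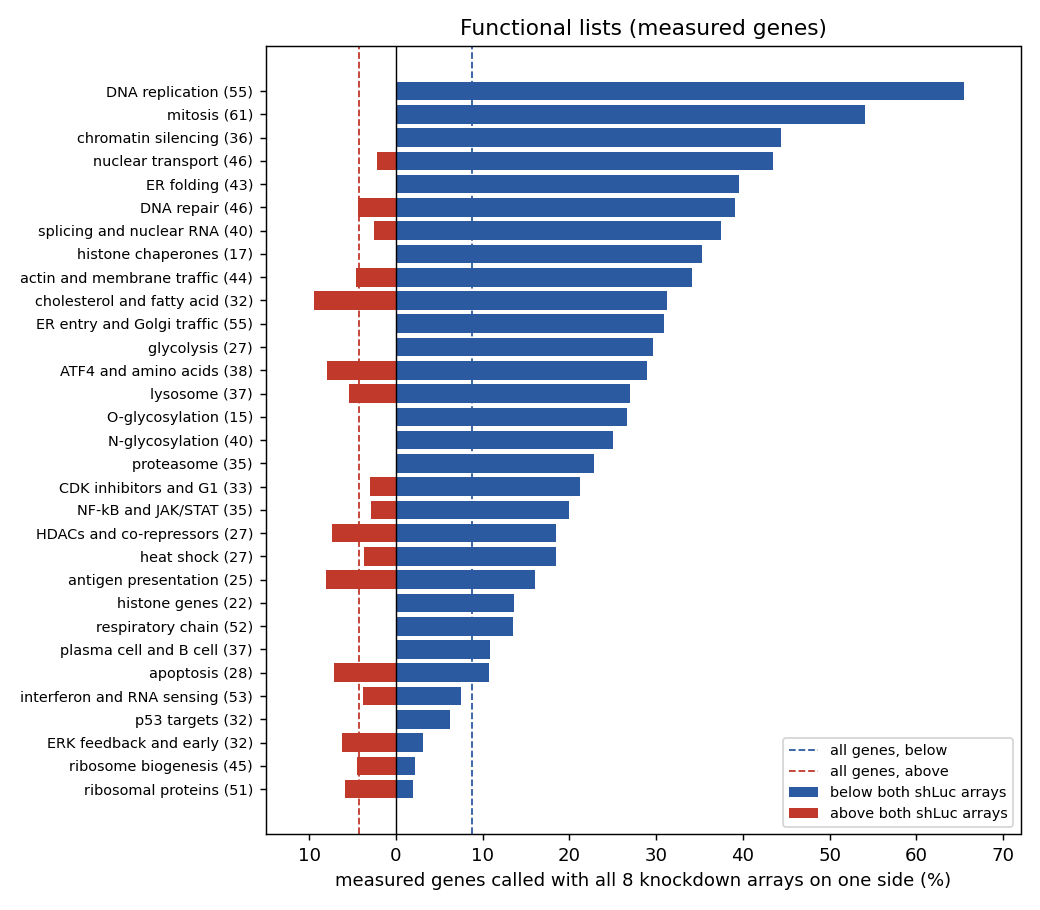
Share (%) of the measured genes of each of 31 functional lists that were called with all 8 knockdown arrays below (blue, to the right) or above (red, to the left) both shLuc arrays, with the number measured in brackets. Dashed lines mark the shares over all genes of every signal level, 8.77% below and 4.24% above. DNA replication reaches 65.5% below.

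Of 61 mitotic genes measured, 51 were called lower and none higher, and 33 had all 8 knockdown arrays below shLuc. The median log2 change of the list was -0.67, against 0.062 for all genes. ASPM, which organises spindle poles, read 6.49 to 7.50 with a median of 6.94 in the knockdown arrays, against 8.37 and 8.02 in shLuc (log2 change -1.27 ± 0.10, adjusted p = 3.6e-08). Cyclin A2 (CCNA2), which drives S phase and entry into mitosis, read 7.63 and 7.80 in shHDAC3#1 but 6.68 to 6.96 in the other 3 hairpins, against 8.37 and 8.13 in shLuc (-1.23 ± 0.09). Below them came RACGAP1 (-1.22), KIF18A (-1.17), CCNB1 (-1.05) and the mitotic kinase CDK1 (-1.04), with BUB3 (-0.48) the smallest of the 33. Hairpins differed for 30 of these 33 genes. The list's median was -0.26 with shHDAC3#1, -0.92 with shHDAC3#2, -0.45 with shDNMT1#1 and -0.995 with shDNMT1#2, so that one hairpin against each target went further than the other.

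Of 55 replication genes, 40 were called lower and none higher, and 36 had all 8 arrays below shLuc, 25 of these with a difference between hairpins. The list's median was -0.49 in the pool, and by hairpin -0.42, -0.62, -0.35 and -0.67 in the same order. CDC7, the kinase that fires replication origins, read 4.34 to 5.43 in the knockdown arrays, against 6.04 and 5.80 in shLuc (-1.21 ± 0.11, adjusted p = 7.2e-08). RRM2, a subunit of ribonucleotide reductase, read 8.50 to 8.64 in shHDAC3#2 and shDNMT1#2 but 10.21 to 10.42 in the other 2 hairpins, against 10.47 and 10.51 in shLuc. Its pooled change of -1.04 ± 0.07 thus came mainly from 2 hairpins. MCM6, a subunit of the replicative helicase, read 8.002 to 8.60, against 9.27 and 9.17 (-0.95 ± 0.08). All 6 of MCM2 to MCM7 were among the 36, from -0.38 (MCM3) to -0.95, with the clamp PCNA at -0.62 and thymidylate synthase (TYMS) at -0.49.

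**Figure D5:**
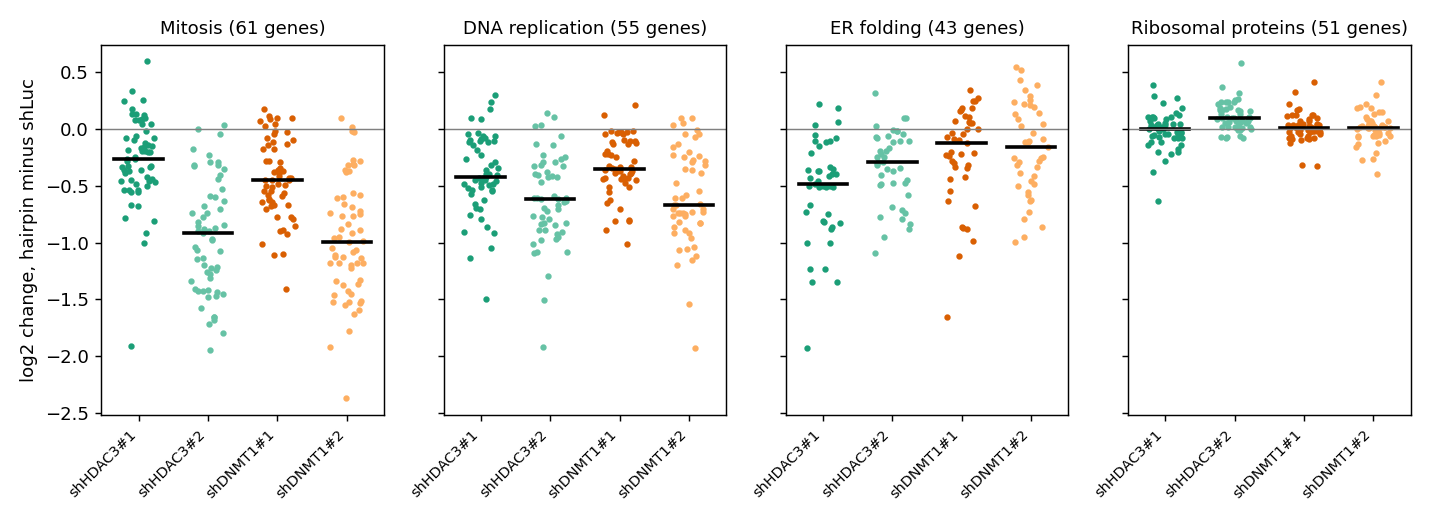
Log2 change of each measured gene (points) by hairpin, minus shLuc, for the lists of mitosis, DNA replication, folding in the endoplasmic reticulum and ribosomal proteins; black bars are medians. The medians of the mitosis list run from -0.26 to -0.995 and those of ribosomal proteins from 0.00 to 0.09.

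Promoters of the 3 mitotic and 3 replication genes with the largest decreases, and of OSTM1, are shown to place their sequence beside these values. Each is the stretch of 250 bases before the RefSeq transcription start on GRCh38.p14, written 5′ to 3′ along the gene's strand. Capitals mark letters searched for on both strands, namely the CCAAT box (CCAAT or ATTGG), the core of the cell cycle homology region, CHR, found in promoters of mitotic genes (TTTGAA or TTCAAA), and E2F motifs (TTTCCCGC or TTTGGCGC, or GCGGGAAA or GCGCCAAA). Motifs of different kinds overlapped in 11 of 15384 promoters.
DEPDC1 (chr1:68497083-68497332, minus strand): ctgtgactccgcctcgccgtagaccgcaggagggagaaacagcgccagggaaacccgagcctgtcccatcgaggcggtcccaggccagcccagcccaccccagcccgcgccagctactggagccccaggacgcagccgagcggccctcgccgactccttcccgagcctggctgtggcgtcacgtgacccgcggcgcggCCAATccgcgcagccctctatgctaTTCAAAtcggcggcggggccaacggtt
ASPM (chr1:197146670-197146919, minus strand): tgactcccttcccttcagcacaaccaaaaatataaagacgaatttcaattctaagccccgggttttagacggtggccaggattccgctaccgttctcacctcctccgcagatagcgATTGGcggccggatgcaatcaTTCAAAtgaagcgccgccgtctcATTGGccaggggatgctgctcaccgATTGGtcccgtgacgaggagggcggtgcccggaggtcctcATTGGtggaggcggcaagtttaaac
CCNA2 (chr4:121823884-121824133, minus strand): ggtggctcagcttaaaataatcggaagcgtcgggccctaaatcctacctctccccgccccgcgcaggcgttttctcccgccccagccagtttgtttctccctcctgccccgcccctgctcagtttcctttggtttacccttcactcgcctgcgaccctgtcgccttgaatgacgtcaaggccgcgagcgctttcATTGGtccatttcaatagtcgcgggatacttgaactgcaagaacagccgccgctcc
CDC7 (chr1:91500601-91500850, plus strand): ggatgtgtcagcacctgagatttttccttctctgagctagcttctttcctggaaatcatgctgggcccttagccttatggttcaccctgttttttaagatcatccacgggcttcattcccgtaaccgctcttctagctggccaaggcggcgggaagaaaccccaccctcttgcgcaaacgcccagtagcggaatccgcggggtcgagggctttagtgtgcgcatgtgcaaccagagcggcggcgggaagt
RRM2 (chr2:10122489-10122738, plus strand): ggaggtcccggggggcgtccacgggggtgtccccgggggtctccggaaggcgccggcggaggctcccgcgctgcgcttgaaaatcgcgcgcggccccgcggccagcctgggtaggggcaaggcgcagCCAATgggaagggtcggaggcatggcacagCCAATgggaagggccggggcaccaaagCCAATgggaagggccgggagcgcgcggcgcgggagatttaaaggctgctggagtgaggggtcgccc
MCM6 (chr2:135876444-135876693, minus strand): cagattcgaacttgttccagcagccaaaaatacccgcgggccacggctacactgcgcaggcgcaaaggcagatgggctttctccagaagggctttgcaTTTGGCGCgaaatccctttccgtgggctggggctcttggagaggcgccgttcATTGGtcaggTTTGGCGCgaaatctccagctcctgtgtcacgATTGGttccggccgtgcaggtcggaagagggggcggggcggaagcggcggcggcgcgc
OSTM1 (chr6:108074742-108074991, minus strand): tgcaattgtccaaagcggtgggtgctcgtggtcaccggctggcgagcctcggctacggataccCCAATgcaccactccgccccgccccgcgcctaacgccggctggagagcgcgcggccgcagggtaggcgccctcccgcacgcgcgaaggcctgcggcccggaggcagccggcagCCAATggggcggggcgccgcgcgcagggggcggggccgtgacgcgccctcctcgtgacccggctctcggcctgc

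The promoters of DEPDC1 and ASPM held both a CCAAT box and a CHR match, MCM6 held 2 CCAAT boxes and 2 E2F matches, RRM2 held 3 CCAAT boxes, OSTM1 held 2, and CCNA2 held 1 CCAAT box and no CHR match. CDC7 and C11orf54 held none of these letters. Among the 15384 measured genes with a promoter in the table, 34.1% held a CCAAT box, 10.6% a CHR match and 2.54% an E2F match. In the mitosis list, CCAAT boxes were found in 38 of 52 promoters (73.1%), CHR matches in 27 (51.9%) and E2F matches in 2 (3.85%). In the replication list, CCAAT boxes were found in 29 of 49 (59.2%), CHR matches in 2 (4.08%) and E2F matches in 12 (24.5%). Over all genes called with 8 arrays below shLuc, 38.2% held a CCAAT box, 9.62% a CHR match and 4.77% an E2F match, and over those above, 32.3%, 10.2% and 3.13%. Among the 28 mitosis genes called with 8 arrays below, 64.3% held a CCAAT box, 46.4% a CHR match and none an E2F match, which for each motif is less than in the whole mitosis list. A match describes the letters in this window and shows no binding.

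Regulators of these phases were counted next. Of 33 genes of CDK inhibitors and G1 control, 7 lay below shLuc and 1, TFDP2 (0.32), above, while 25 did not meet the rule. Without shLuc replicate 2, 15 lay below. SKP2, which marks the CDK inhibitor p27 for destruction, read 6.37 to 8.08, against 8.51 and 8.40 in shLuc (-1.31 ± 0.09). CDKN1B, which encodes p27, was lower too (-0.75), as were RB1 (-0.74) and E2F2 (-0.81 ± 0.08). CDKN1A, the CDK inhibitor p21, was called higher in the pool (0.72 ± 0.07, adjusted p = 2.5e-07) but did not meet the rule. It read 10.52 to 10.94 with the DNMT1 hairpins, 10.17 and 10.16 with shHDAC3#1 and 9.48 and 9.65 with shHDAC3#2, against 9.64 and 9.51 in shLuc. Among 32 p53 targets, 2 (6.25%) lay below shLuc, FAS (-0.62 ± 0.09) and MDM2 (-0.38 ± 0.08), and none above. Over all genes the shares were 8.77% below and 4.24% above. Without shLuc replicate 2, 6 lay below, and after a further quantile normalization 1 lay below and 4 above. The brightest probe sets not liable to cross-hybridize gave 0.12 for FAS, at a signal of 4.59, and 0.03 for MDM2. Other such probe sets of MDM2 gave -0.57, -0.18 and, at a signal of 2.65, 0.16. Of 28 apoptosis genes, 3 (10.7%) lay below and 2 (7.14%) above, against 8.77% and 4.24% of all genes. Those below included the caspase CASP2 (-0.63 ± 0.07) and the survival protein MCL1 (-0.33 ± 0.07). Those above were HRK (0.22) and DIABLO (0.28 ± 0.09). The number below was 1 without shLuc replicate 1, 7 without shLuc replicate 2 and 1 after quantile normalization, with 5 above. Without shLuc replicate 1, MCL1 (-0.29, adjusted p = 0.092) and DIABLO (0.38, adjusted p = 0.0503) were not called, and without shLuc replicate 2 DIABLO was not called either (0.19, adjusted p = 0.22).

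Of 46 DNA repair genes, 18 (39.1%) lay below shLuc and 2 above, TP53BP1 (0.29) and ERCC1 (0.35), and the list's median was -0.23. MSH6, a mismatch repair protein, read 6.13 and 6.27 in shDNMT1#2 and 7.36 to 7.78 in the others, against 8.42 and 8.23 in shLuc (-1.11 ± 0.09). BARD1, the partner of BRCA1, read 6.54 to 7.54, against 8.14 and 7.91 (-1.06 ± 0.09). The checkpoint kinase CHEK1 (-0.67), the helicase BLM (-0.65) and the end-binding protein XRCC5 (-0.39) were lower by less.

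Genes of chromatin silencing were lower beyond DNMT1 and UHRF1. Of 36 measured, 16 lay below shLuc and none above, with a median of -0.38. SUV39H2, a histone H3 lysine methyltransferase, read 5.93 to 7.29, against 7.79 and 7.81 in shLuc (-0.91 ± 0.11), and was lowest with shDNMT1#1. The methyl-CpG binding proteins MBD2 (-0.83) and MBD1 (-0.46), HELLS (-0.73), the polycomb subunit EED (-0.49), the de novo methyltransferase DNMT3B (-0.46) and the demethylation enzyme TET2 (-0.44) were lower as well. EZH2 was called lower (-0.63) without meeting the rule. With probe sets liable to cross-hybridize left out, 7 of 28 members lay below shLuc, at a median of -0.06, and DNMT1 itself was no longer measured.

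Of 27 deacetylases and co-repressors, 5 lay below shLuc and 2 above. Without shLuc replicate 1, 2 lay below, and after a further quantile normalization 5 lay below and 6 above. HDAC9 read 6.48 to 7.32, against 7.76 and 7.53 in shLuc (-0.85 ± 0.09), while its other probe sets gave between -0.36 and 0.11. SIRT1 (-0.60 ± 0.13), GPS2, a subunit of the complex that holds HDAC3 (-0.59 ± 0.11), HDAC2 (-0.53) and GATAD2B (-0.27) were the other 4. SIRT1 and GPS2 were not called without shLuc replicate 1 (adjusted p = 0.066 and 0.093). The scaffold SIN3A (0.24) and GATAD2A (0.23) lay above. Histone chaperones had 6 of 17 below and none above, with ASF1A, which hands on H3 and H4, at -0.75 ± 0.09 and HJURP, which loads the centromeric histone, at -0.66 ± 0.08. ASF1A changed by -1.89 with shHDAC3#1, at 5.83 and 5.91, while its other 6 knockdown arrays read 7.11 to 7.65, against 7.81 and 7.70 in shLuc. Among 22 histone genes and their regulators, 3 lay below: SLBP, which binds the tail of histone transcripts (-0.65 ± 0.08), H2AZ1 (-0.54 ± 0.07) and NPAT (-0.50 ± 0.12). NPAT was not called without shLuc replicate 1 (-0.34, adjusted p = 0.32), and 5 of the 22 lay below without shLuc replicate 2.

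The lists of the secretory pathway held decreases and no increase that met the rule. Of all genes with a mean signal of 8 to 9, 20.4% lay below shLuc and 5.12% above, and at 9 to 10, 30.9% and 1.67%. The share below was 39.5% in folding and degradation (median signal 9.08), 30.9% in entry and Golgi transport (8.35) and 25% in N-glycosylation (8.38). In the endoplasmic reticulum, 17 of 43 folding and degradation genes lay below shLuc, at a list median of -0.31. DNAJC10, a disulfide reductase, read 7.07 to 7.72, against 8.61 and 8.21 in shLuc (-0.93 ± 0.10). ERO1A, which makes disulfide bonds, read 6.66 to 7.24, against 7.76 and 7.59 (-0.85 ± 0.10), and EDEM3, which trims mannose from misfolded proteins, read 7.61 to 8.08, against 8.80 and 8.50 (-0.84 ± 0.09). The stress sensors EIF2AK3 (-0.78) and ERN1 (-0.43) were among the 17. The hairpin medians were -0.48 with shHDAC3#1, -0.29 with shHDAC3#2, -0.13 with shDNMT1#1 and -0.15 with shDNMT1#2. After a further quantile normalization 9 of 43 lay below and 1 above.

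For entry into the endoplasmic reticulum and transport to the Golgi, 17 of 55 genes lay below shLuc. After a further quantile normalization 13 lay below and 2 above, and 1 gene each of N-glycosylation and O-glycosylation lay above. TMED10, a cargo receptor, read 8.20 to 9.56, against 9.81 and 9.73 (-0.99 ± 0.08), SRP9 of the signal recognition particle read 10.20 to 11.46, against 11.77 and 11.79 (-0.89 ± 0.07), and the coat GTPase SAR1B changed by -0.68 ± 0.11. Of 40 genes of N-glycosylation, 10 lay below, with 4 without shLuc replicate 1, 16 without shLuc replicate 2 and 5 after a further quantile normalization. UAP1, which makes UDP-N-acetylglucosamine, read 7.19 and 7.37 in shHDAC3#1 and 8.39 to 9.18 in the other hairpins, against 9.86 and 9.72 (-1.37 ± 0.09), and ALG13 changed by -0.76 ± 0.12. Of 15 genes of O-glycosylation, 4 lay below: GALNT3, GALNT7 (-0.95 ± 0.10), the core 1 galactosyltransferase C1GALT1 (-0.75 ± 0.10) and ST6GAL1 (-0.40). Other probe sets of C1GALT1 gave -0.09 and -0.21. The median of this last list was -0.01, so its decreases were those of single genes.

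Nuclear transport and splicing genes were next. In nuclear transport, 20 of 46 lay below shLuc and RANBP1 (0.45) above. The nuclear lamin LMNB1 read 8.05 to 9.20, against 9.33 and 9.26 in shLuc (-0.87 ± 0.08), with the shHDAC3#1 arrays, at 9.02 and 9.20, close to the control. The nucleoporin NUP50 read 7.19 to 8.10, against 8.62 and 8.58 (-0.87 ± 0.09). The importin KPNA2 read 8.55 to 9.14 in shHDAC3#2 and shDNMT1#2 and 9.56 to 10.12 in the other hairpins, against 10.23 and 10.21 (-0.84 ± 0.10). Of 40 splicing genes and nuclear RNAs, 15 lay below and MALAT1 above. HNRNPC read 9.37 to 9.87, against 10.27 and 10.22 (-0.57 ± 0.07), and the splicing factor TRA2B read 9.42 to 9.997, against 10.37 and 10.34 (-0.53 ± 0.08). After a further quantile normalization, 12 of 46 transport genes and 5 of 40 splicing genes lay below, and without shLuc replicate 1, 11 and 9.

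Among actin and membrane traffic genes, 15 of 44 lay below and 2, CFL2 and WASF3, above. ANXA2, a membrane-binding annexin, read 8.37 to 9.64, against 10.08 and 10.01 in shLuc (-1.13 ± 0.07), and its ligand S100A10 read 7.13 to 8.08, against 8.73 and 8.33 (-0.98 ± 0.10). A single ANXA2 probe set not liable to cross-hybridize gave 0.30 (adjusted p = 0.020 in that fit), against -1.09 and -1.08 for its other 2. RAB10, a GTPase of vesicle transport, read 7.59 and 7.63 in shDNMT1#2 and 9.09 to 9.55 in the others, against 9.74 and 9.78 (-0.90 ± 0.08).

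Metabolic lists held decreases in different branches. Of 32 genes of cholesterol and fatty acid synthesis, 10 lay below and 3 above. HMGCS1, the entry enzyme of the mevalonate pathway, read 6.84 to 7.81, against 8.54 and 8.22 (-0.97 ± 0.09), and HSD17B12 changed by -1.24 ± 0.09. SC5D, a late enzyme of cholesterol synthesis, changed by -0.95 ± 0.13 at a low signal, and a second probe set gave 0.06. The regulator SREBF1 (0.23), fatty acid synthase FASN (0.30) and ACSL1 (0.37) lay above. After a further quantile normalization 7 lay below and 7 above. Of 27 glycolysis and hypoxia genes, 8 lay below, with the oxygen sensor EGLN1 (-0.88 ± 0.10), PFKFB3 (-0.59 ± 0.12) and LDHA (-0.46 ± 0.07) the largest, and without shLuc replicate 1, 4 lay below. Other EGLN1 probe sets gave between -0.80 and 0.16. Of 38 ATF4 targets and amino acid genes, 11 lay below, among them the transporter SLC1A4 (-0.80 ± 0.08), PSAT1 of serine synthesis (-0.66 ± 0.10) and ATF4 itself (-0.39), and 3 above, at 0.21 to 0.28. A second PSAT1 probe set gave -0.03. Without probe sets that can cross-hybridize, 4 of 27 lay below. In the respiratory chain, 7 of 52 lay below, with NDUFA5 (-0.93 ± 0.09) and UQCRC2 (-0.70 ± 0.09) the largest, and none above. After a further quantile normalization, 3 lay below and 4 above, at a median of -0.01, against -0.19.

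Protein and organelle turnover followed. Of 35 proteasome genes, 21 were called lower but 8 lay below shLuc in all arrays, PSMC6 (-0.69 ± 0.09) the most, and the list's median of -0.23 became -0.07 after a further quantile normalization, with 3 below. Without shLuc replicate 1, 4 lay below. Of 37 lysosome genes, 10 lay below, with the membrane protein SCARB2 (-1.003 ± 0.09) and the enzyme GUSB (-0.77 ± 0.08) first, while OSTM1 and CTSH (0.26) lay above. A second GUSB probe set gave 0.16. After a further quantile normalization, 5 lysosome genes lay below and 4 above. SCARB2 read 6.96 and 7.25 in shDNMT1#2 and 8.69 to 9.23 in the others, against 9.62 and 9.41 in shLuc. Of 27 heat shock genes, 5 lay below, with HSPH1 at -0.52 ± 0.07, and HSPE1 above. Without shLuc replicate 1, and likewise after quantile normalization, 3 lay below.

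Of 51 ribosomal protein genes measured, 4 were called higher and 1 lower, 3 lay above shLuc and 1 below, and the median was 0.02. RPL31 read 12.98 to 13.27, against 12.61 and 12.70 in shLuc (0.45 ± 0.07, adjusted p = 2.9e-05). RPL32 and RPS9 changed by 0.28 ± 0.06 and 0.23 ± 0.07, and neither was called without shLuc replicate 1 (adjusted p = 0.26 and 0.57). RPL22 changed by -0.19 ± 0.06 and was not called without shLuc replicate 1 (adjusted p = 0.42) or replicate 2 (adjusted p = 0.18). This list depended on scaling, as its median was -0.02 after centring and 0.21 after scaling each array to 1 SD, with 19 of 51 then above shLuc. In ribosome biogenesis, RRP1B and its relative RRP1 (0.25 ± 0.08) lay above and NOLC1, a nucleolar chaperone (-0.42 ± 0.07), below, of 45 measured. RRP1 was not called without shLuc replicate 1 (adjusted p = 0.55), and 5 of the 45 lay below without shLuc replicate 2.

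Of 37 plasma cell and B cell genes, 4 (10.8%) lay below shLuc, near the 8.77% of all genes, and none above. Their median signal was 8.46, and of all genes with a mean signal of 8 to 9, 20.4% lay below. ELL2, an elongation factor that favours secreted antibody transcripts, read 6.63 to 7.50, against 8.47 and 8.22 (-1.29 ± 0.10, adjusted p = 1.3e-08). The integrin ITGA4 read 7.81 to 8.32, against 9.07 and 8.77 (-0.82 ± 0.09), and the surface receptor SLAMF7 read 8.47 to 9.61, against 9.80 and 9.81 (-0.79 ± 0.08). The antibody joining chain, JCHAIN, changed by -0.38. The regulators IRF4 (-0.33 ± 0.07), PRDM1 (-0.36 ± 0.09) and XBP1 (-0.21 ± 0.07) were called lower but overlapped with shLuc. Their other, dimmer probe sets gave 0.02 and 0.26 for IRF4, -0.11 and 0.01 for PRDM1 and 0.13 for XBP1. None of these other probe sets was called over all probe sets. IRF4 read 8.71 to 9.64, against 9.44 and 9.50, and its higher values came from shHDAC3#1. PRDM1 and XBP1 were not called without shLuc replicate 1 (adjusted p = 0.43 and 0.26), and without shLuc replicate 2 XBP1 was not called either (adjusted p = 0.22). None of these 3 was called after a further quantile normalization. The growth regulator MYC read 10.72 to 11.59, against 11.14 and 11.001, and was not called (0.08 ± 0.07, adjusted p = 0.38), as the hairpins fell on both sides of shLuc.

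In antigen presentation, 4 of 25 lay below, the peptide trimmer ERAP1 (-0.76 ± 0.10), HLA-B (-0.45 ± 0.07), HLA-C (-0.42 ± 0.07) and TAP2 (-0.31), and 2 above, the class I regulator NLRC5 (0.29) and HLA-DOA (0.32). HLA class I genes are near-identical and their probe sets can share signal. Without probe sets that can cross-hybridize, 0 of 19 antigen presentation genes lay below and 2 above, at a median of 0.09, against -0.18 for the whole list. Of 53 interferon and RNA-sensing genes, 4 lay below and 2, OASL (0.25) and RSAD2 (0.43), above, and without shLuc replicate 1, 1 lay below. With all 10 arrays, 7.55% of this list lay below and 3.77% above, near the 8.77% and 4.24% of all genes. The RNA-activated kinase EIF2AK2 read 6.07 to 6.70, against 7.35 and 7.13 (-0.78 ± 0.09). SAMD9 (-0.72 ± 0.12) and the RNA sensor IFIH1 (-0.48 ± 0.10) were not called without shLuc replicate 1 (adjusted p = 0.076 and 0.095). A second SAMD9 probe set gave -0.03. Of 35 NF-kB and JAK-STAT genes, 7 lay below and NFKBIB (0.25) above, with 3 of 27 below when probe sets that can cross-hybridize were left out. TNFAIP3, a feedback inhibitor of NF-kB, read 8.03 to 8.64, against 9.45 and 9.22 (-1.07 ± 0.08, adjusted p = 1.4e-08). IL6ST, the signalling chain of the IL-6 receptor, read 7.70 in both shDNMT1#2 arrays and 8.77 to 9.13 in the others, against 9.69 and 9.66 (-1.03 ± 0.09). The phosphatase PTPN11 read 6.81 to 7.97, against 8.54 and 8.30 (-0.89 ± 0.09), and was lowest with shDNMT1#1. Its other probe sets gave between -0.46 and 0.11. Of 32 ERK feedback and early genes, PHLDA1 lay below (-1.30 ± 0.12) and DUSP5 and NR4A1 (0.28 ± 0.08) above. NR4A1 was not called without shLuc replicate 1 (0.19, adjusted p = 0.38), and 7 of the 32 lay below without shLuc replicate 2.

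The 2 lists with the highest shares were also counted against each control array in turn, and the other lists whose number of genes below shLuc then moved by over 1.5 times are given with their values above. Without shLuc replicate 1, where the rule needs only the other control array, 35 of 61 mitosis genes and 32 of 55 replication genes were called with all 8 arrays below shLuc, against 1099 of all 19775 genes, and 36 of all genes lay above. Without shLuc replicate 2 the counts were 38 of 61 and 38 of 55, with 2514 of all genes below and 1546 above. These fits rest on a lone control array, which is assumed to vary as the other groups do.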

How the data were processed

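RNA was measured in 10 MM.1S samples, 1 array each, on an Affymetrix 3′ array of 54675 probe sets. The values are on the log2 scale and came from RMA as the authors ran it, per the submitters' processing notes, which give no version. RMA makes all arrays share one distribution before it sums probes and keeps no raw signal, so background correction and scan batches could not be varied. The sources used here do not give whether all arrays were infected and normalized together.

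Probe sets with 1 gene symbol (41097) were kept, 1801 with several and 11777 with none were left out, and each of 19775 genes was read from its brightest probe set, by the mean of all 10 arrays. No low-signal filter was applied. A total of 41043 probe sets matched RefSeq GRCh38.p14 and no symbol changed. limma 3.58.1 in R 4.3.3 fitted the 5 groups with a trended eBayes prior. The contrast was the mean of the 4 hairpin means minus shLuc, called at a Benjamini-Hochberg adjusted p under 0.05 over all 19775 genes. A moderated F test compared the hairpins with each other, and a further contrast took HDAC3 hairpins minus DNMT1 hairpins. Errors after ± are the model's SE. The code was tested on simulated data. No label states that a group's 2 arrays had separate cultures behind them, so the error behind the p-values may be technical. The number of arrays limits the precision.

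The comparison, its members and the 31 functional lists (1287 entries, 1166 of them measured) were chosen with earlier results of these data known. The 122 genes named by rule were the targets, the 12 largest changes each way, up to 3 members per list, MYC, IRF4, PRDM1, XBP1 and CDKN1A, the 4 evenest and 4 most uneven genes each way and those nearest the threshold. Loci without a gene name and Y-linked genes were left out of the named genes. Other list members in the text were named after their values were seen. Replicate numbers did not pair the arrays (r of same-numbered deviations -0.34 to 0.27). A total of 26 alternatives were run, covering normalization, probe set choice, the prior, weights, blocks and left-out arrays or hairpins.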

Additional observations from a re-analysis of the deposited data

Results flagged for a closer look

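For 49 of the 122 named genes the change with the HDAC3 hairpins differed from that with the DNMT1 hairpins. This was limma's contrast of the 2 pairs of hairpins, which uses no shLuc array apart from the error of the fit. Over all genes it called 1897 (9.59%). Whether the HDAC3 and DNMT1 arrays were infected and normalized together is not given. A difference between targets therefore cannot be told apart from one between runs. The named genes include the targets, the largest changes and the most uneven ones, so a higher share was built into their choice. All values are log2 differences, HDAC3 hairpins minus DNMT1 hairpins. A mean over 2 hairpins can differ because of 1 of them, so the 4 hairpin means were also set side by side. For 26 genes the hairpins of the 2 targets overlapped, and for the others both hairpins of one target lay below both of the other.

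Both HDAC3 hairpins lay below both DNMT1 hairpins for 10 genes. These were HDAC3 (-0.81), GALNT3 (-1.40), CDKN1A (-0.86), ANP32E (-0.81), DEPDC1 (-0.73), THEMIS (-0.67), ELL2 (-0.66), ANXA2 (-0.64), LDHA (-0.37) and HLA-C (-0.30). CDKN1A changed against shLuc by 0.29 with the HDAC3 hairpins and by 1.15 with the DNMT1 hairpins. GALNT3 changed by -1.93 with the HDAC3 hairpins and by -0.53 with the DNMT1 hairpins, and its lowest values lay in shHDAC3#1.

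Both DNMT1 hairpins lay below both HDAC3 hairpins for 13 genes. These were DNMT1 (1.46), PKP2 (0.96), PTPN11 (0.80), PRDM1 (0.75), IL6ST (0.69), XBP1 (0.67), C1GALT1 (0.60), LMNB1 (0.59), NUP50 (0.53), IRF4 (0.48), HDAC9 (0.38), NPAT (0.38) and MCL1 (0.20). The plasma cell regulators IRF4, PRDM1 and XBP1, each read from its brightest probe set alone, were all among them. XBP1 changed by 0.12 against shLuc with the HDAC3 hairpins and by -0.54 with the DNMT1 hairpins.

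For the other 26 the hairpins of the targets overlapped, so the difference describes no contrast shared by both hairpins. Of these, ARMC1 (-1.10), SC5D (-0.87), ASF1A (-0.76), UAP1 (-0.75), GUSB (-0.56), PSAT1 (-0.49), S100A10 (-0.37), HLA-B (-0.31) and BROX (-0.29) were lower on average with the HDAC3 hairpins. HSD17B12 (0.89), SCARB2 (0.79), RAB10 (0.73), RNF168 (0.72), MSH6 (0.61), CCNA2 (0.48), NDUFA5 (0.48), GALNT7 (0.47), E2F8 (0.37), AIDA (0.36), SUV39H2 (0.34), DUSP5 (0.33), HMGCS1 (0.30), SINHCAF (0.29), HSPH1 (0.28), E2F2 (0.26) and CASP2 (0.22) were lower on average with the DNMT1 hairpins. DUSP5 changed by 1.11 with shHDAC3#2 and by 0.45 to 0.48 with each other hairpin. AIDA changed by -3.26 with shDNMT1#2 but by -0.35 with shDNMT1#1.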

How the results depend on the processing

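The number of genes called higher was 1226, and it was 2325 after a further quantile normalization, 464 after centring, 0 with the hairpin as a random block, 27 with the knockdown arrays as 1 group, 695 without hairpin shHDAC3#1, 1980 without shDNMT1#1 and 632 without shDNMT1#2. The number called lower was 3163, and it was 6 with the random block and 276 with 1 group. Genes with all 8 arrays above shLuc numbered 2116, and 1336 after centring. Genes that differed between hairpins numbered 4664, with 2676 without shHDAC3#1 and 3099 without shDNMT1#2. Leaving out 1 array at a time gave 55 to 2147 genes called higher, 1405 to 3528 called lower, 2218 to 6174 above shLuc, 1875 to 3481 below and 3618 to 5307 that differed between hairpins. The replicate block, although numbers did not pair the arrays, gave 924 higher, 2992 lower and 4297 that differed. Of the 2574 genes described, 2230 were called in the same direction after quantile normalization (18 in the opposite one), 1082 without shLuc replicate 1 and 2146 without shLuc replicate 2. Without probe sets that can cross-hybridize, 1674 of 2190 kept their call and 200 had the opposite sign. Of 3138 values of named genes, 312 lost their call, 120 of them under the random block and 87 with 1 group. Signs turned without such probe sets for RPS9 (-0.0289), SC5D (0.0550), FAS (0.12), MDM2 (0.0274) and ANXA2 (0.30), and MYC, not called, gave -0.0434 without shHDAC3#2 and -0.0007 without shDNMT1#2. MYC was called after quantile normalization (0.20), after scaling to 1 SD (0.21) and without shHDAC3#1 (0.22). The cause of these shifts was not tested. Array weights, robust eBayes and eBayes without the trend left the number of calls within 1.5 times.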
